A study of Danio rerio with 8 samples.

Results

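The genes described here encode collagens, laminins and other proteins of the extracellular matrix, together with the enzymes and the chaperone that mature collagen. They were chosen by symbol. A probe set was taken where its annotation named a single gene whose symbol begins with col and a digit, lama, lamb and a digit, lamc, fn1, fbn, fbln, matn, tnc, hapln, lox, p4ha, plod or nid, or is sparc, dcn, lum, bgna, and1, hspg2 or serpinh1b. This gave 61 probe sets of 47 genes, out of 8793 genes with a probe set of their own. Where a gene had several probe sets, the one with the highest mean log2 signal stood for it. The symbols fbn, lum, bgna and hspg2 and the type IV collagens met no such probe set and are not analysed here.

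Both fractions came from AB strain zebrafish embryos that carried the cd41-GFP transgene and were taken 35 hours after fertilization, in which green fluorescent protein is driven from the promoter of itga2b (cd41), known from thrombocytes and early blood progenitors. The fractions were GFP-positive cells, sorted alive by their fluorescence, and the GFP-negative cells of the same kind of embryo, with 4 arrays each, numbered as pairs 1 to 4. The sources used here give no number of embryos per sort and do not say whether the sorts used different clutches. A p-value therefore describes only how these samples vary, and that variation may be technical. RNA was amplified in 2 rounds and hybridized to Affymetrix zebrafish arrays, and each value is a signal on a linear scale.

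The labels of the fractions are not checked by the gene behind the gate. The signal of itga2b was below the 40th percentile of its array, here called dim, on all 8 arrays. All 15 tested myeloid markers rose in the GFP-positive fraction, against 13% of all tested probe sets. Their list was chosen with earlier results of these data known, so this count does not check the labels either. Among these markers the myeloid factor gene spi1b had signals of 9604, 12748, 9772 and 16291 on GFP-positive replicates 1 to 4, against 546, 291, 406 and 230 in the GFP-negative fraction. Of these markers, alox5ap and mmp9 were dim on all GFP-negative arrays. They passed the filter given below through the GFP-positive arrays alone, so a difference was built into their selection. The GFP-positive array of replicate 3 stood apart, with a correlation of 0.82 to the mean of the GFP-negative arrays over all tested probe sets, while the other GFP-positive arrays had 0.54 to 0.66. The counts of called matrix genes, in all and by class, are therefore also given without pair 3.

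Matrix proteins are secreted, assembled outside the cell and bound by receptors such as integrins and dystroglycan. Fibrillar collagens form the cables of fin fold, skin and tendon, and a related set of collagens and linker proteins builds cartilage and the sheath of the notochord, the axial rod of the embryo. Laminins, nidogens and the type IV, XV and XVIII collagens belong to the basement membrane, the thin sheet under epithelia, around muscle and along vessels. In the embryo most of these genes are known from connective tissue, notochord, epidermis and muscle.

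Most measurable matrix genes had less RNA in the GFP-positive fraction. Of the 47 genes 32 passed the filter (a signal above the 40th percentile on at least 4 of 8 arrays), and of these 17 fell and 2 rose at an adjusted p under 0.05 (limma, Benjamini-Hochberg adjusted over all tested probe sets). That is 53.1% lower, against 18.4% of all 9801 tested probe sets, while 13% of all tested probe sets rose. The median log2 difference, GFP-positive minus GFP-negative, was -1.76 over the 32 genes (-1.32 with dim genes at their bounds) and -0.18 over all tested probe sets. Without pair 3, 19 of 30 tested genes fell, the 17 and also col6a3 and p4ha1b, and 1 rose. Over all probe sets tested without pair 3, 1494 of 10005 fell and 942 rose. By class, 1 more was called lower without pair 3 among other collagens and 1 more among the enzymes, and the call of col15a1a was lost. The other numbers called were those given below. The genes hapln1a and col9a3, of cartilage and notochord sheath, were not tested without pair 3. Of the 32 genes 2, col28a1a and loxl2b, passed the filter through the brighter fraction alone, so a difference was built into their selection, and of the other 30 genes 16 fell and 2 rose. In bulk samples, fewer cells of a type and less RNA per cell cannot be told apart.

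The fractions did not overlap for many of these genes. In 15 of the 32 genes every GFP-positive array lay below every GFP-negative array, which held for 19.9% of all tested probe sets. In 2 genes, matn1 and col28a1a, every GFP-positive array lay above, against 14.5% of all tested probe sets. These counts include col28a1a and, among the 15, loxl2b. Both passed the filter through the brighter fraction alone, so a difference was built into their selection. On this scale 1273 probe sets rose and 1805 fell in all, while median centring of the arrays gave 1496 higher and 1440 lower. It moved the median of all tested probe sets from -0.18 to 0.01 and that of the matrix genes to -1.57, with 16 lower and 3 higher.

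**Figure D1:**
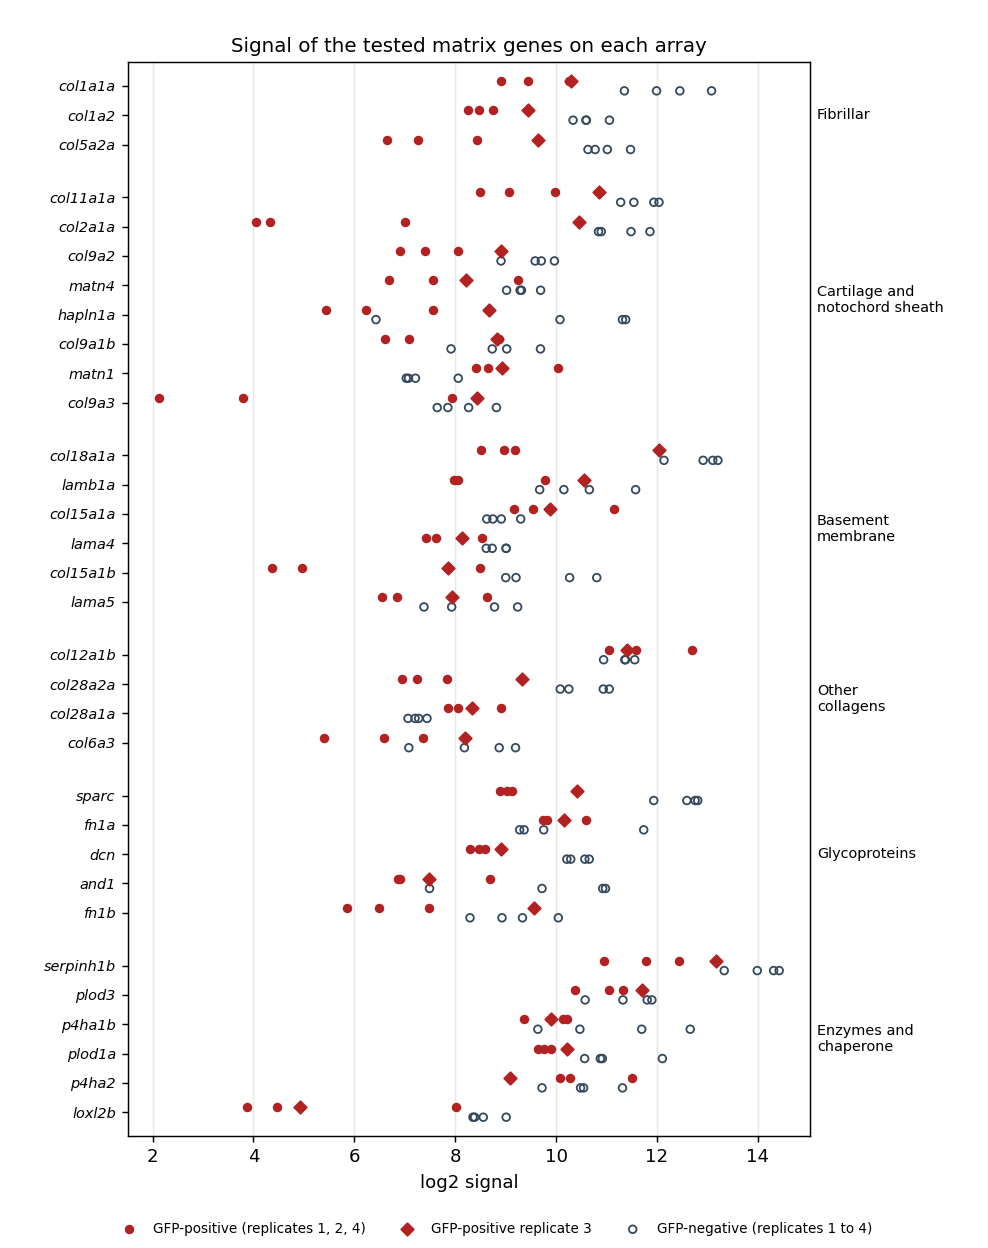
Each row is 1 of the 32 tested matrix genes, grouped by class, and the horizontal axis is the log2 signal. Filled points are the 4 GFP-positive arrays, with a diamond for replicate 3, and open circles are the 4 GFP-negative arrays. In 15 rows all filled points lie left of all open circles, and in the rows of matn1 and col28a1a all filled points lie to the right.

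All 3 genes of fibrillar types I and V fell, against 18.4% of all tested probe sets (types II and XI, also fibrillar, are given with cartilage). The genes col1a1a and col1a2 encode chains of type I, and col5a2a a chain of type V, which is built into the same fibrils and limits their width. The signals of col1a1a were 1216, 701, 1255 and 482 on the GFP-positive arrays of replicates 1 to 4, against 8684, 5619, 2622 and 4079 on the GFP-negative arrays. The highest GFP-positive value stayed below the lowest GFP-negative one. The log2 difference was -2.50 (SE 0.40, n = 4 pairs, adjusted p = 0.0065, limma). The other probe set of col1a1a differed by -1.34 (adjusted p = 0.031, limma). Both are of a kind (suffix _s_at) whose probes can match several transcripts, so signal of its near copy col1a1b cannot be set apart.

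The partner chain gene col1a2 gave 307, 429, 701 and 358 on the GFP-positive arrays, against 1294, 1544, 1554 and 2135 on the GFP-negative arrays. Again the groups did not overlap, and the difference was -1.91 (SE 0.32, adjusted p = 0.0072, limma). Its second probe set gave -2.21 (adjusted p = 0.024, limma), so both type I genes were lower by each of their probe sets. For col5a2a the signals were 347, 99.6, 795 and 154 in the GFP-positive fraction and 2852, 1589, 2072 and 1753 in the GFP-negative fraction. Its GFP-positive signal was dim on 2 of 4 arrays, so the fold is a lower bound, and it was at least 6.76-fold lower (adjusted p = 0.0054, limma). Such a bound sets a dim array at its 40th percentile where the signal is lower, and leaves out the spread between arrays. For a gene that did not pass, it sets no least difference. A further col5a2a probe set was dim on all arrays.

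Of the 13 genes of cartilage and notochord sheath 8 were tested, of which 3 fell (37.5%) and 1 rose. Over all tested probe sets 18.4% fell and 13% rose. The fitted difference was below 0 for 7 of the 8 genes, and for 57% of all tested probe sets (5590 of 9801). Type II collagen, the main collagen of cartilage and of the notochord sheath, is encoded by col2a1a, with signals of 129, 19.9, 1406 and 16.6 on the GFP-positive arrays, against 3724, 1837, 2871 and 1907 on the GFP-negative arrays. The value of 1406 is that of replicate 3, and the other GFP-positive arrays were dim. The gene was at least 7.57-fold lower (adjusted p = 0.010, limma).

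The type XI chain gene col11a1a, whose product copolymerizes with type II, was measured on every array. It had 1013, 358, 1858 and 538 in the GFP-positive fraction, against 3927, 2490, 2984 and 4218 in the GFP-negative fraction. The groups were apart and the difference was -2.10 (SE 0.42, adjusted p = 0.012, limma); it did not pass without pair 2 or 4 (-1.87 and -1.81). Type IX collagen decorates type II fibrils, and its chain gene col9a2 had 268, 120, 479 and 169 in the GFP-positive fraction, against 1002, 768, 481 and 836 in the GFP-negative fraction. In pair 3 the 2 values were nearly equal. It was at least 2.99-fold lower (adjusted p = 0.035, limma), a call lost without pair 1, 2 or 4. The other type IX chains did not pass and have only bounds, at least 1.65-fold lower for col9a1b (adjusted p = 0.11, limma) and at least 1.23-fold lower for col9a3 (adjusted p = 0.12, limma), whose signals lay between 4.39 and 345 on the GFP-positive arrays.

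The matrilins, linkers between collagen fibrils and proteoglycans, gave different results. The signals of matn1, known from cartilage, were 1050, 343, 486 and 403 on the GFP-positive arrays, against 267, 131, 135 and 148 on the GFP-negative arrays. Every GFP-positive array lay above the highest GFP-negative one, and matn1 was at least 2.30-fold higher, in 4 of 4 pairs (adjusted p = 0.011, limma). The GFP-negative signal passed the 40th percentile on 1 array. Its relative matn4 had 606, 103, 297 and 188 in the GFP-positive fraction, against 625, 637, 519 and 829 in the GFP-negative fraction. That difference of -1.40 was below 0 in 4 of 4 pairs but did not pass (SE 0.48, adjusted p = 0.065, limma). It passed without pair 1 (-1.86, adjusted p = 0.028, limma).

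The link protein gene hapln1a, whose product ties hyaluronan to proteoglycans, depended on the probe set. Its brightest probe set read 189, 43.1, 405 and 75.6 on the GFP-positive arrays, against 86.2, 2552, 1081 and 2668 on the GFP-negative arrays. With the low value of GFP-negative replicate 1 the groups overlapped. The gene was dim on 3 of 4 GFP-positive arrays, with a bound of 3.73-fold lower, and did not pass (adjusted p = 0.096, limma). It passed without pair 1 (adjusted p = 0.021, limma) and with the mean of its probe sets (adjusted p = 0.049, limma). Another probe set had 98.2, 28.7, 220 and 11.1 on the GFP-positive arrays, against 1981, 2398, 875 and 1372 on the GFP-negative arrays. There the groups were far apart, and hapln1a was at least 7.32-fold lower (adjusted p = 0.0070, limma). A further one was at least 3.30-fold lower (adjusted p = 0.013, limma), and the 3 other probe sets of the gene were not tested. The probe sets with bounds of 7.32-fold and 3.30-fold were dim on all GFP-positive arrays. They passed the filter through the GFP-negative arrays alone, so a difference was built into their selection.

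**Figure D2:**
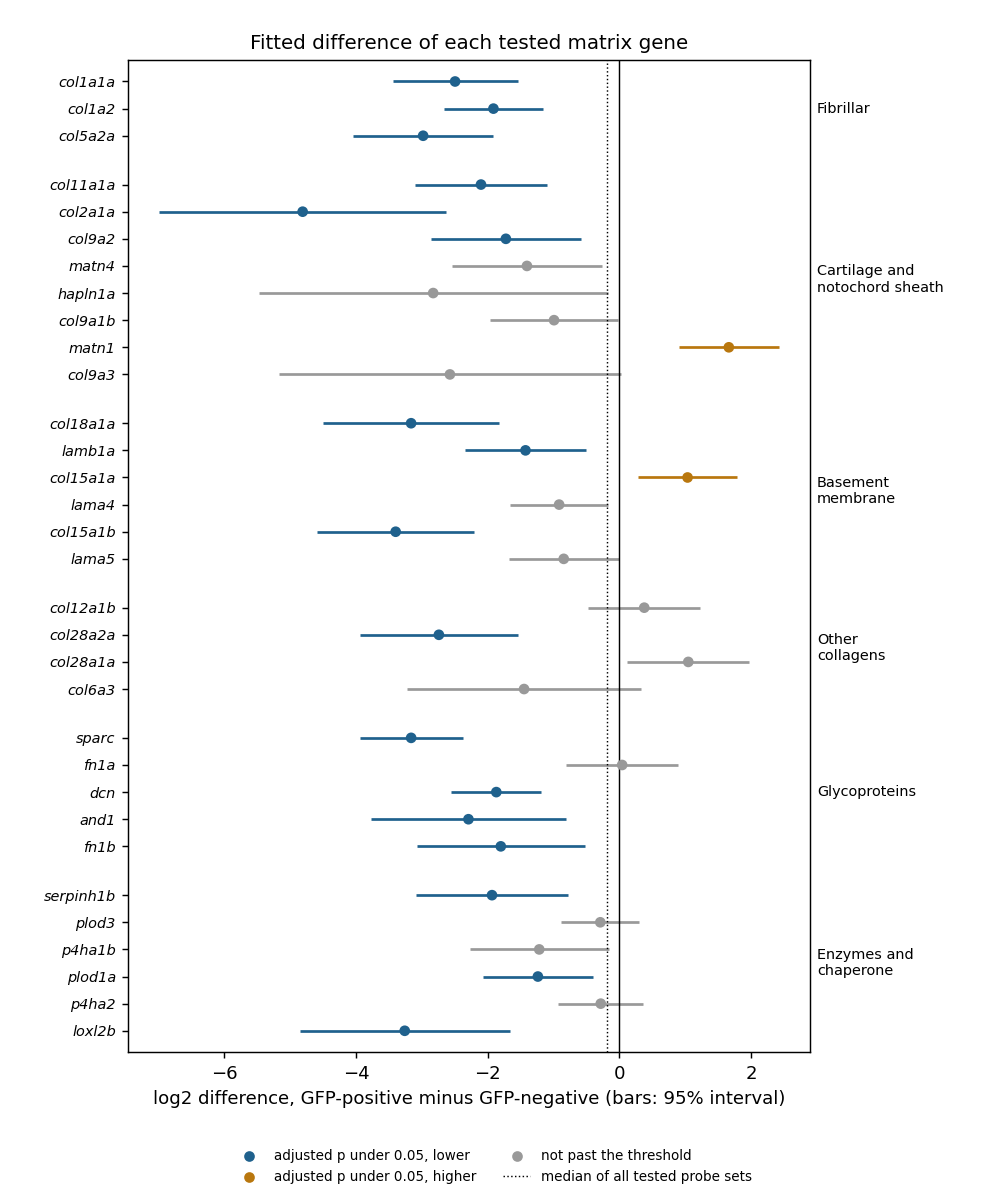
Points are fitted log2 differences, GFP-positive minus GFP-negative, with 95% confidence intervals from limma, for the 32 tested matrix genes by class; genes given in the text as bounds are drawn at their fitted values, which are no bounds. The dotted line marks the median of all 9801 tested probe sets, -0.18. Of the 32 points 27 lie below 0, against 57% of all tested probe sets, and the intervals of matn1 and col15a1a lie wholly above 0.

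In the basement membrane 3 of 6 tested genes fell and 1 rose, out of 11 genes in all. Over all tested probe sets 18.4% fell and 13% rose. The type XVIII collagen gene col18a1a, whose C-terminal piece is known as endostatin, had 586, 367, 4241 and 498 on the GFP-positive arrays, against 9477, 4517, 7734 and 8831 on the GFP-negative arrays. Replicate 3 came close to the lowest GFP-negative array, 4517, and the rest lay far below. The difference was -3.16 (SE 0.57, adjusted p = 0.0084, limma) and -3.93 without pair 3.

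Laminins are trimers of an alpha, a beta and a gamma chain. The beta chain gene lamb1a had 885, 267, 1496 and 251 in the GFP-positive fraction, against 3058, 818, 1619 and 1141 in the GFP-negative fraction. The groups overlapped, but every pair was lower, by -1.43 on average (SE 0.39, adjusted p = 0.032, limma), a call lost under quantile normalization, without the replicate block and without pair 1, 2 or 4. The alpha chain gene lama4, known from vessel walls, had 369, 197, 280 and 173 in the GFP-positive fraction, against 516, 392, 515 and 426 in the GFP-negative fraction. Although these groups did not overlap, the difference of -0.91 did not pass (SE 0.32, adjusted p = 0.066, limma), and its second probe set, dim on 2 of 4 arrays of each fraction, did not pass either (adjusted p = 0.95, limma). The brighter probe set of lama4 passed when only probe sets above the percentile on all arrays were tested (adjusted p = 0.023, limma) and without pair 1 (adjusted p = 0.048, limma). The alpha 5 chain gene lama5 has only a bound, 1.40-fold lower, and did not pass (adjusted p = 0.11, limma).

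The copies of the type XV collagen gene went opposite ways. For col15a1a the signals were 2275, 746, 945 and 572 on the GFP-positive arrays, against 630, 430, 482 and 395 on the GFP-negative arrays. Each of the 4 pairs showed it higher, by 1.04 on average (SE 0.32, adjusted p = 0.046, limma), although the groups overlapped at 572 and 630. This call was lost with no filter on dim probe sets, with no replicate block, with no variance trend and with any 1 pair left out. For col15a1b the signals were 360, 20.7, 232 and 31.2 on the GFP-positive arrays, against 1792, 513, 1234 and 591 on the GFP-negative arrays. It was dim on 3 of 4 GFP-positive arrays and at least 4.04-fold lower (adjusted p = 0.0052, limma).

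The ratio of such copies within an array was compared between fractions for the 2 tested a and b pairs, a comparison chosen after the values were seen. The log2 ratio of col15a1a to col15a1b averaged 3.51 ± 1.43 for GFP-positive cells and -0.92 ± 0.60 for GFP-negative cells (SD, n = 4 each) and was higher in 4 of 4 pairs. The difference was 4.44, and 3.05 with dim signals set at the 40th percentile. Permuting the 8 arrays gave the smallest p possible for them (two-sided exact permutation test, p = 0.029), which did not pass when adjusted over the 2 ratios (0.057). Swapping fractions within pairs gave an exact p of 0.125, the smallest that 4 pairs allow. For the fibronectin copies, fn1a over fn1b, the log2 ratio averaged 2.73 ± 1.47 for GFP-positive cells and 0.88 ± 0.63 for GFP-negative cells (SD, n = 4 each). That difference of 1.84, or 1.07 with dim fn1b signals at the 40th percentile, did not pass (exact permutation test, p = 0.086, also 0.086 adjusted). This ratio too was higher in 4 of 4 pairs, and swapping fractions within pairs gave the same value (exact permutation test, p = 0.125).

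**Figure D3:**
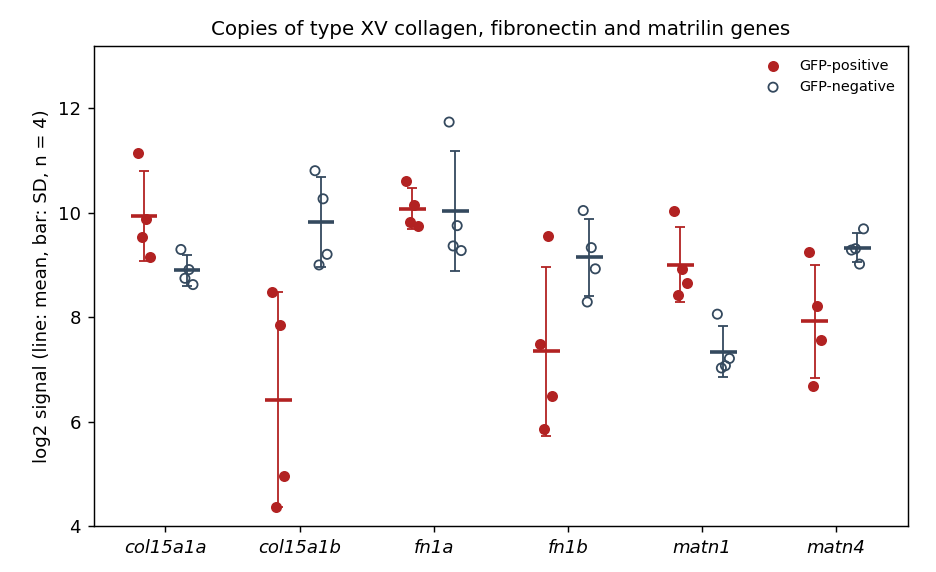
Log2 signals of the type XV collagen copies, the fibronectin copies and the matrilin genes are shown per array, GFP-positive as filled and GFP-negative as open points, with the mean and SD of 4 arrays. The GFP-positive mean of col15a1a lies above its GFP-negative mean, the GFP-positive points of col15a1b lie wholly below the GFP-negative ones, and fn1a differs by 0.04 on average.

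Among the other collagens 1 of 4 tested genes fell (25%, against 18.4% of all tested probe sets), of 6 in all. Type XXVIII collagen is a small collagen with von Willebrand type domains, and its genes gave different calls. The gene col28a2a had 230, 152, 639 and 124 on the GFP-positive arrays, against 1961, 1085, 1222 and 2128 on the GFP-negative arrays, and was at least 5.72-fold lower (adjusted p = 0.0093, limma). The gene col28a1a had 480, 234, 325 and 267 on the GFP-positive arrays, against 134, 155, 147 and 174 on the GFP-negative arrays, all 4 of them dim. These groups did not overlap, and the gene, with a bound of 1.49-fold higher, did not pass (adjusted p = 0.082, limma). It passed after median centring (adjusted p = 0.030, limma) and quantile normalization (adjusted p = 0.048, limma).

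Type XII collagen coats fibrils in dense connective tissue. Its gene col12a1b had 6664, 3094, 2728 and 2122 in the GFP-positive fraction, against 2660, 1969, 2636 and 3020 in the GFP-negative fraction. The groups overlapped, and the difference was 0.38 with a 95% interval from -0.47 to 1.23 (adjusted p = 0.45, limma). For col6a3, a chain of the beaded filament collagen type VI, the signals were 165, 96.1, 294 and 42.0 in the GFP-positive fraction, against 469, 291, 135 and 587 in the GFP-negative fraction. It was dim on 3 of 4 GFP-positive arrays, with a bound of 1.46-fold lower, and did not pass (adjusted p = 0.18, limma). It passed without pair 3 (adjusted p = 0.044, limma), where the GFP-positive array was the higher one.

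Of the glycoproteins and small proteoglycans 4 of 5 tested genes fell (80%, against 18.4% of all tested probe sets), of 7 in all. The gene of the collagen-binding protein osteonectin, sparc, had 521, 556, 1373 and 471 on the GFP-positive arrays, against 3923, 7183, 6929 and 6185 on the GFP-negative arrays. It had the smallest adjusted p of the 32 genes (0.0019, limma), and its 95% interval ran from -3.94 to -2.38. Decorin, a small proteoglycan that binds type I fibrils, is encoded by dcn, with 385, 314, 478 and 356 in the GFP-positive fraction, against 1616, 1521, 1188 and 1254 in the GFP-negative fraction. Replicates lay close together in both fractions (SD 0.25 and 0.21 on the log2 scale), and dcn fell by 1.87 (SE 0.29, adjusted p = 0.0057, limma).

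Actinodin 1, the product of and1, belongs to the elastoidin fibres of the fish fin fold. Its signals were 412, 117, 179 and 120 on the GFP-positive arrays, against 2021, 1945, 180 and 844 on the GFP-negative arrays. GFP-negative replicate 3 was as low as the GFP-positive arrays. The gene was at least 3.79-fold lower (adjusted p = 0.032, limma), and the call was lost without pair 2 or 4.

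Fibronectin carries cells and early fibrils, and fish have more than 1 gene for it. For fn1a the signals were 1554, 903, 1136 and 858 in the GFP-positive fraction, against 3419, 660, 865 and 621 in the GFP-negative fraction. It was higher in 3 of 4 pairs and lower in pair 1, and the difference of 0.04 had a 95% interval from -0.81 to 0.89 (adjusted p = 0.94, limma). Its 2 other probe sets were each above the 40th percentile on 1 array, and the mean of all 3 gave 0.87 (adjusted p = 0.092, limma). For fn1b the signals were 179, 58.1, 756 and 90.0 in the GFP-positive fraction, against 1057, 314, 646 and 487 in the GFP-negative fraction. It was lower in 3 of 4 pairs and at least 2.03-fold lower over all (adjusted p = 0.043, limma). That call too was lost under quantile normalization, without the replicate block and without pair 1, 2 or 4.

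Of the enzymes and the chaperone 3 of 6 tested genes fell (50%, against 18.4% of all tested probe sets), of 7 in all. The collagen chaperone Hsp47, which binds the triple helix on its way out of the cell, is encoded by serpinh1b, with 5536, 1967, 9255 and 3507 on the GFP-positive arrays, against 10338, 20384, 16278 and 22004 on the GFP-negative arrays. The groups came close between 9255 and 10338 but did not overlap. The difference was -1.93 (SE 0.49, adjusted p = 0.025, limma), and the call was lost without pair 2 or 4.

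Lysyl hydroxylases modify collagen lysines and come in separate forms. For plod1a the signals were 950, 872, 1187 and 804 in the GFP-positive fraction, against 4419, 1883, 1518 and 1935 in the GFP-negative fraction. It fell by 1.24 (SE 0.35, adjusted p = 0.037, limma), a call lost after median centring, under quantile normalization and without pair 1, 2 or 4. For plod3 the signals were 1321, 2571, 3340 and 2130 in the GFP-positive fraction, against 1528, 3585, 3822 and 2569 in the GFP-negative fraction. It was slightly lower in 4 of 4 pairs, by 0.29 with a 95% interval from -0.88 to 0.30 (adjusted p = 0.41, limma).

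The prolyl hydroxylase genes p4ha1b and p4ha2 encode subunits of the enzyme that stabilizes the triple helix, and neither passed. For p4ha1b the signals were 1193, 1121, 951 and 658 on the GFP-positive arrays, against 6478, 3327, 798 and 1421 on the GFP-negative arrays. Here the spread lay in the GFP-negative fraction (SD 1.33, against 0.39 in the GFP-positive fraction, log2 scale). The difference was -1.22 (adjusted p = 0.078, limma), and -1.71 without pair 3 (adjusted p = 0.027, limma). For p4ha2 it was -0.28 (adjusted p = 0.46, limma). The lysyl oxidase relative loxl2b, of the family that crosslinks collagen, was dim on all GFP-positive arrays, with 259, 22.2, 30.2 and 14.6, against 516, 377, 327 and 335 on the GFP-negative arrays. It was at least 1.81-fold lower (adjusted p = 0.013, limma), a call lost without pair 2 or 4. The gene passed the filter through the GFP-negative arrays alone, so a difference was built into its selection.

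The differences varied between pairs. The median over the 32 genes was -1.65, -2.35, -0.66 and -2.37 in pairs 1 to 4, while that of all tested probe sets lay between -0.23 and -0.13. Of the 17 genes that fell, 14 had their highest GFP-positive signal in replicate 3 and the other 3 in replicate 1. For 15 of them pair 3 showed the smallest difference. Over these 17 genes the median SD was 1.04 on the GFP-positive and 0.48 on the GFP-negative arrays (log2 scale). The GFP-positive SD was the larger for 14 of them. These genes were chosen as low on the GFP-positive arrays, where 8 of them have only a bound, and low signals vary more. The SD over all tested probe sets was not compared.

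**Figure D4:**
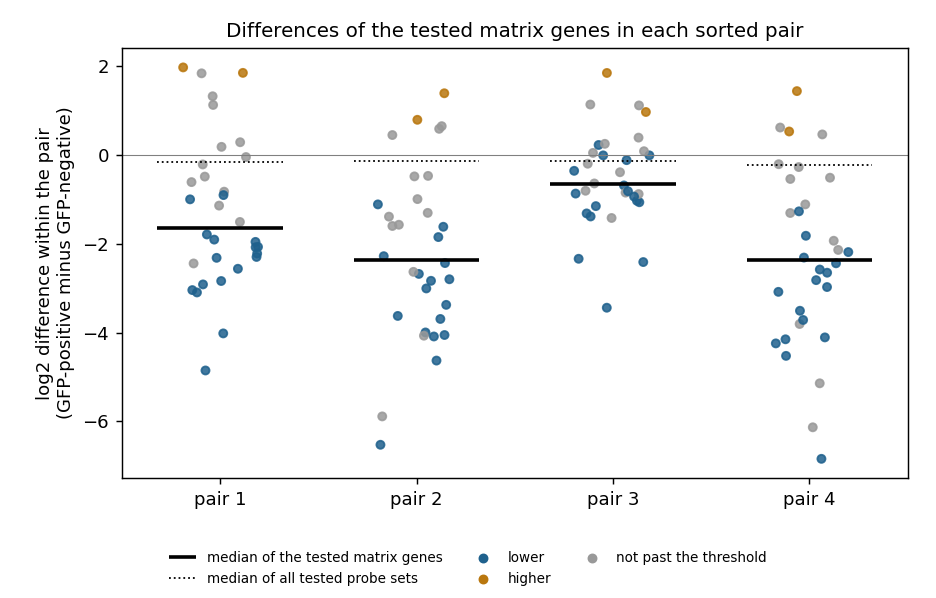
Each point is the log2 difference of 1 tested matrix gene within a sorted pair, GFP-positive minus GFP-negative, coloured by its call, and points are spread sideways for legibility. Thick lines mark the medians of the matrix genes, -1.65, -2.35, -0.66 and -2.37, and dotted lines those of all tested probe sets; pair 3 lies nearest to 0.

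The remaining 15 genes did not pass the filter, and 9 of them were dim on all 8 arrays. Of the 15, col10a1a, col10a1b, col11a2, col8a1a and hapln2 were placed by symbol alone in the class of cartilage and notochord sheath. The others were the laminin chain genes lamb2l, lamb4, lamc1 and lamc3, nid1a, which encodes the laminin binder nidogen, col14a1a, col17a1b, fbln1, tncb and the lysyl oxidase gene loxa. None of the 15 was above the 40th percentile on more than 3 arrays, and the highest signal was 370. With no filter, lamc3 was called lower (-2.41, adjusted p = 0.043, limma), though its signals were at most 53.1 on the GFP-positive and 98 on the GFP-negative arrays. A low signal does not show that a gene is silent.

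Other genes of the matrix pathway were counted from separate lists. Of 14 tested other matrix genes 9 fell and 2 rose, with a median log2 difference of -1.83. Of all tested probe sets 18.4% fell and 13% rose. Among the called genes of this list, tnr, thbs1b and thbs4b passed the filter through the brighter fraction alone, so a difference was built into their selection. Of the sulfatase genes that trim heparan sulfate, sulf2a was at least 12.4-fold lower (adjusted p = 0.0044, limma) and sulf1 at least 5.66-fold lower (adjusted p = 0.0081, limma). The gene efemp2b, which encodes a fibulin of elastic fibres, was at least 4.02-fold lower (adjusted p = 0.0045, limma). The tenascin gene tnr, known from the nervous system, had 381, 535, 916 and 1087 on the GFP-positive arrays, against 126, 124, 91.9 and 138 on the GFP-negative arrays, all dim. It was at least 3.18-fold higher (adjusted p = 0.0067, limma).

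Against 18.4% lower and 13% higher over all tested probe sets, 4 of 15 tested genes of collagen secretion and processing fell and 1 rose. Their median log2 difference was -0.04. The 4 that fell were p3h4, of the collagen prolyl 3-hydroxylase family, with a log2 difference of -2.70 (SE 0.44, adjusted p = 0.0067, limma), the prolyl isomerase relative fkbp9 with -2.56 (SE 0.50, adjusted p = 0.011, limma), fkbp10b, which was at least 3.90-fold lower (adjusted p = 0.013, limma), and crtap (-2.17, adjusted p = 0.047, limma). The channel gene tmem38b of the endoplasmic reticulum rose, with a log2 difference of 1.3 (SE 0.26, adjusted p = 0.011, limma). Of the 4 tested matrix receptor genes, dystroglycan dag1 fell by 1.42 (SE 0.33, adjusted p = 0.020, limma). No receptor gene rose by limma, nor at an unadjusted p under 0.05. Whether the processing and receptor counts depart from the shares over all tested probe sets was not tested.

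Markers of several tissues and of blood cells were counted from separate lists. The counts stand beside 18.4% lower and 13% higher of all tested probe sets. These lists were chosen with earlier results of these data known, so the counts are no independent check of the fractions. Of 9 tested mesenchyme markers 8 fell. The summed signal of 13 such genes lay between 1741 and 5778 in the GFP-positive fraction, with the highest value on replicate 3, and between 12194 and 15925 in the GFP-negative fraction. Of these genes 7 were dim on all GFP-positive arrays, prrx1a and prrx1b among them, and twist1a, tcf15 and tbx18 were dim on all 8. Of 5 tested notochord markers 3 fell, and the sum over 9 genes lay between 1464 and 6606 for GFP-positive and between 6961 and 9561 for GFP-negative arrays. The notochord genes noto and shhb were dim on all arrays, and tbxta passed the percentile on 1 GFP-negative array. Of 20 tested muscle markers 19 fell, with sums of 5410 to 17845 in the GFP-positive fraction and 83218 to 219320 in the GFP-negative fraction. All 19 tested neural markers fell, with sums of 3575 to 38547 in the GFP-positive fraction and 89764 to 112505 in the GFP-negative fraction. Of 8 tested endothelial markers 4 fell, with sums of 3763 to 9775 among GFP-positive and 21193 to 24397 among GFP-negative arrays. GFP-positive replicate 3 had the highest of the 4 GFP-positive sums in each of the mesenchyme, muscle, neural, endothelial and epidermis lists. It had the lowest for cartilage and bone precursors and for erythroid markers. For notochord, myeloid and thrombocyte markers its sum was neither the highest nor the lowest. Of the notochord sums cav1, which was not called, gave 4006, 895, 1623 and 1060 on GFP-positive replicates 1 to 4. On the GFP-negative arrays it gave 1692, 2994, 1590 and 2857, and sums without cav1 were not compared. Sums overlapped for epidermis, where 3 of 14 tested markers fell (11026 to 25994 for GFP-positive and 17855 to 26289 for GFP-negative arrays). They also overlapped for cartilage and bone precursors (3591 to 9721 for GFP-positive and 4810 to 9741 for GFP-negative arrays), where 2 of 4 tested markers fell and runx3, also a gene of blood cells, rose. Of these sums runx3 alone gave 8421, 4252, 1548 and 4977 on GFP-positive replicates 1 to 4, against 210 to 397 on GFP-negative arrays. Its lowest GFP-positive value was thus also that of replicate 3, and sums without runx3 were not compared. Blood lists moved as well. Of 14 tested erythroid markers 10 fell, with overlapping sums of 255509 to 338193 for GFP-positive and 222356 to 388128 for GFP-negative arrays. The globin genes hbae3 and hbbe3, neither of them called, made up much of these sums. They gave 115093 to 152922 and 73196 to 120070 on GFP-positive arrays, and 36328 to 104837 and 39263 to 107118 on GFP-negative arrays. Of 5 tested thrombocyte markers srgn, f13a1b and ptgs1 rose, thbs1b fell and nfe2 was not called. The sums were 64667 to 86049 for GFP-positive and 12288 to 14217 for GFP-negative arrays. Of these sums f13a1b alone gave 42916 to 60521 on GFP-positive and 10262 to 11664 on GFP-negative arrays. The gene srgn is also counted among the myeloid markers, and thbs1b among the other matrix genes. Some called markers passed the filter through the brighter fraction alone, so a difference was built into their selection. They were prrx1a, prrx1b and twist3 (mesenchyme), mylz3, tnnt3a and pvalb1 (muscle), neurog1 and neurod4 (neural), krt17 (epidermis) and thbs1b. The part of the listed cell types in the matrix result was not tested.

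A sign of RNA quality was also read. The 3' signal of the GAPDH control, divided by its 5' signal, which is larger where transcripts are shortened, was 86.6, 31.3, 99.95 and 45.6 on the GFP-positive arrays, against 75.4, 22.6, 18.2 and 21.6 on the GFP-negative arrays. In 4 of 4 pairs the GFP-positive ratio was the larger. The 5' signal was dim on GFP-positive replicates 1 and 3 and on GFP-negative replicate 1, and with these at the 40th percentile the GFP-positive ratio was the larger in 3 of 4 pairs, and pair 1 turned. Its part in the matrix result was not tested.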

How the data were processed

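Per the submitters' processing notes, the deposited intensity values are linear MAS5 signals, 1 for each probe set on each array; version and scaling target are not given in the sources used here. The trimmed mean (2% off each end) was 1500.26 to 1500.47 on all arrays, so the authors' scaling was kept, and median signals were 275 to 421. The number of arrays limits the precision. Of 15617 probe sets, 115 controls stayed out. Names came from the platform annotation supplied with the table, which names no build, so no coordinates are given.

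Signals were taken to log2 without a pseudocount, and a probe set was tested if above its array's 40th percentile on at least 4 of 8 arrays. The fractions were compared with limma 3.58.1 under R 4.3.3 (variance trend, two-sided, Benjamini-Hochberg over all tested probe sets, threshold 0.05), with the replicate number as a block because the design text pairs the fractions. The correlations of same-numbered deviations from the group means were 0.40, 0.26, 0.18 and -0.12, so in pair 4 the pairing rests on the text. The fit was tried on simulated data, with no filter and with the spread of the GFP-negative arrays on all arrays. It therefore did not cover the larger spread that the genes that fell had on the GFP-positive arrays. Ratios of copies were tested with scipy 1.17.1. A gene dim on at least 2 of 4 arrays of its lower fraction has only a bound.

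The genes, classes and lists were chosen with earlier results of these data known. Every matrix gene may be named; values per array are given for the 4 brightest of each class, for genes that rose, for hapln1a, whose probe sets disagree, and, chosen after values were seen, for col15a1b, fn1b, loxl2b, spi1b and tnr. From each other list, up to 4 called genes with the smallest p are named, plus crtap and called genes that passed the filter through the brighter fraction alone. The values of runx3 and cav1, the ranges of f13a1b, hbae3 and hbbe3 and the mention of nfe2 were added after values were seen. Alternatives were no replicate block, quantile normalization, median centring, 2 other filters, no variance trend, the mean of all probe sets of a gene, and each pair left out.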

Additional observations from a re-analysis of the deposited data

Results flagged for a closer look

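Of 64 groups of 4 arrays checked (32 genes in 2 fractions), 1 held an array far from the others. The sparc signal of 1373 on GFP-positive replicate 3 lay apart from the other GFP-positive arrays. On the log2 scale the gap was 0.85 of the group's range (Dixon's test at 95%). Chance gives such a gap in about 1 group of 20. Without pair 3 the difference of sparc was -3.44 (adjusted p = 0.0028, limma), against -3.16 with all pairs.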

How the results depend on the processing

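Of 17 genes called lower, 9 (col1a1a, col1a2, col5a2a, col2a1a, col18a1a, col15a1b, col28a2a, sparc and dcn) stayed lower and past the threshold in every alternative that tested them, as did matn1 upwards. The median difference ran from -2.11 to -1.22 over the 11 alternatives. A filter of all 8 arrays above the percentile left 16 of the genes, of which 10 were lower and 1 higher. Over all probe sets 1050 of 6684 were then lower and 927 higher. By class, 1 of 1 tested gene was lower in cartilage and notochord sheath and 2 of 3 tested genes among the glycoproteins. Among other collagens 0 were lower. Of other collagens 1 gene was tested and 0 had an unadjusted p under 0.05 (limma). Under this filter other matrix genes gave 3 lower and 1 higher. The count of higher genes was 1 with no filter, with no replicate block and with no variance trend, because col15a1a missed the threshold. The mean of all probe sets left 1 of the other matrix genes higher, and median centring gave 2 higher processing genes; these causes were not tested. With no replicate block 15 matrix genes were lower and col15a1a, fn1b and lamb1a lost their calls. No other call of the 32 genes changed. Over all probe sets 1688 of 9801 were lower in that setting and 1191 higher.

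With 1 pair left out, 9 to 19 genes were lower (9 without pair 2 or 4) and 1 higher each time. The counts over all tested probe sets moved too. Without pairs 1, 2, 3 and 4 in turn, 2053 of 9881, 732 of 9826, 1494 of 10005 and 634 of 9859 were lower. In the same order 1493, 680, 942 and 645 were higher. By class, 1 to 4 were lower in cartilage and notochord sheath, 2 to 4 among the glycoproteins, 1 to 2 among other collagens and 0 to 4 among the enzymes (0 without pair 2 or 4, with 3 at an unadjusted p under 0.05 by limma). Receptors gave 0 to 1 lower (1 at an unadjusted p under 0.05 without pair 2 or 4, limma), processing genes 1 to 5 lower and 0 to 3 higher, and other matrix genes 5 to 9 lower and 1 to 2 higher. The difference of fn1a turned below 0 without pair 2, 3 or 4 and ran from -0.10 to 0.44; with the mean of its probe sets it was 0.87. The ratio of the col15a1a and col15a1b copies ran from 4.11 to 4.79 and that of the fibronectin copies from 1.49 to 2.40 when a pair was left out; with dim signals at the 40th percentile they were 3.05 and 1.07. Low MAS5 signals vary widely between arrays, which limits the genes given as bounds.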
